A study of Mus musculus with 59 samples.

Results

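KLS cells from the bone marrow of mice in which Daxx had been deleted were compared with wild-type (WT) KLS cells 24 weeks after the end of induction. KLS cells are the Lin- c-Kit+ Sca-1+ fraction of bone marrow, which holds the hematopoietic stem cells and the multipotent progenitors. The members were the libraries whose columns in the deposited 24-week KLS gene table are marked control or treated, which gave 6 of the 59 libraries of the series, 2 WT and 4 Daxx-deleted. RNA from the sorted cells was sequenced, and a value below is a normalized count, the number of reads on a gene after the authors' division by 1 size factor per library. The WT animals were Daxx +/+ and the deleted animals Daxx F/F, with 2 of the 4 also Pu.1 F/F, all of them C57BL/6 and all Cre +/- of the Mx1Cre line. The columns show only control or treated, so which of the deleted libraries carried the Pu.1 allele could not be told, and the 4 were taken as 1 group, named Daxx-deleted a to d beside WT a and WT b. Mx1Cre is switched on by interferon after injection of pI:pC, a double-stranded RNA mimic, and it acts in stem cells and in much of the rest of the mouse, so a difference in KLS cells need not have begun in them. The WT animals carry the same Cre, and the study injected both genotypes. Nothing in the labels beyond the separate columns says how the libraries of a group were related, so a p-value here measures the spread between these libraries.

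Daxx is a histone chaperone that, with its partner Atrx, places the histone variant H3.3 at silent parts of the genome such as telomeres, pericentromeric repeats and endogenous retroviruses. Stem and multipotent cells of the KLS gate carry low levels of transcripts of the lineages they can still enter, so that erythroid, megakaryocyte, neutrophil and lymphoid genes can all be read in the gate. Erythroid genes are driven by Gata1 with Klf1, and neutrophil granule genes by C/EBP factors with Pu.1 (gene name Spi1).

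The targeted gene was read first. Daxx (chr17:33909414-33915590, plus strand) had normalized counts of 976 and 807 in the WT libraries and of 148, 213, 129 and 104 in the Daxx-deleted libraries. All 4 deleted libraries lay below both WT libraries, by 2.62 ± 0.36 on the log2 scale (SE, adjusted p = 0.0137), so the column marks and the gene went the same way. This and the other gene tests below are limma fits to log2(value + 1), with p-values adjusted by Benjamini-Hochberg over all tested genes, and a gene is called where its adjusted p is below 0.05. Spi1 had 2734 and 3311 in WT and 3292, 4226, 4106 and 3699 in the deleted libraries, with overlapping groups and a log2 difference of 0.34 ± 0.18 (adjusted p = 0.734). None of the 4 deleted libraries was low in Spi1 reads over the whole gene, and the Spi1 reads do not show which of them had the Pu.1 allele. At 3 weeks the 2 KLS libraries labelled both Daxx F/F and Pu.1 F/F had 3330 and 2993, above the WT values of 1676, 1669 and 2320. A low whole-gene Spi1 value was therefore no mark of the Pu.1 F/F libraries at that time. Values of Mybpc3, a neighbour of Spi1, are given in the closing section.

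The groups differed in another respect that the labels do not give. The Y-linked genes Uty, Ddx3y, Kdm5d and Eif2s3y had normalized counts of at most 1.32 in both WT libraries and of 601 to 3497 in all 4 Daxx-deleted libraries. Uty, for example, had 0 and 0.804 against 2309, 2037, 3388 and 3497. Kdm6a, an X-linked histone demethylase that escapes X inactivation, had 5304 and 4485 in WT and 2681, 2195, 3200.3 and 3151 in the deleted libraries (log2 difference -0.81 ± 0.20, adjusted p = 0.161). Other X-linked genes looked at divided the groups less clearly. Eif2s3x and Ddx3x were lower without overlap (adjusted p = 0.523 and 0.789), and Kdm5c overlapped (adjusted p = 0.797). The WT libraries thus carried the transcripts of female cells and the deleted libraries those of male cells, and at 24 weeks sex and genotype cannot be told apart for any gene below. The granulocyte-monocyte progenitor (GMP) libraries of the same animals were divided in the same way, while the 8 KLS libraries of 3 weeks (3 WT, 3 Daxx-KO and 2 DKO, which lack both Daxx and Pu.1) had at most 15.4 for each of these 4 genes, WT and deleted alike. Values at 3 weeks, where that division was not present, are therefore set beside the 24-week ones below.

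**Figure D1:**
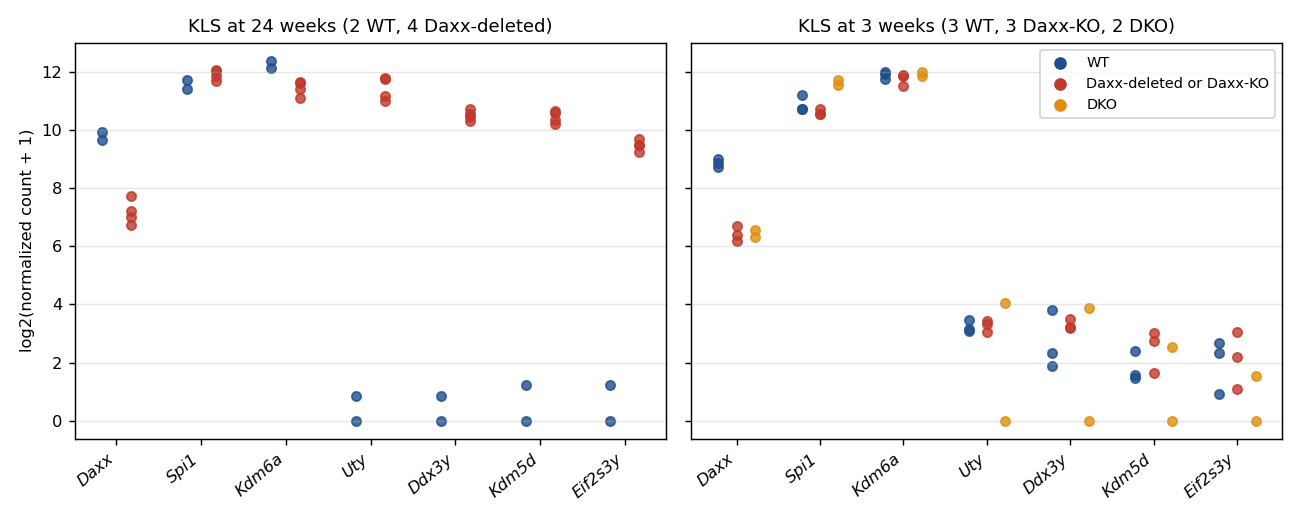
The vertical axis gives log2(normalized count + 1) of Daxx, Spi1, the X-linked Kdm6a and 4 Y-linked genes in each KLS library, at 24 weeks (2 WT, 4 Daxx-deleted) and at 3 weeks (3 WT, 3 Daxx-KO and 2 DKO), where each point is 1 library. Daxx was lower in every deleted library than in every WT library at both times, and the Y-linked genes divided the groups at 24 weeks but not at 3 weeks.

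The markers of the gate were present. Kit, the receptor selected by c-Kit staining, had normalized counts of 15319 to 21595 over the 6 libraries, and Ly6a, which encodes Sca-1, had 312 to 674. Both groups overlapped for both genes. Of the markers of mature cells that the lineage panel removes, Ly6g, the neutrophil surface protein recognised by Gr-1 staining, had 17.2 and 16.9 in WT against 110.1, 83.1, 247 and 189 in the deleted libraries (adjusted p = 0.0688). The 6 tested markers went both ways, 3 with a positive and 3 with a negative difference, at a median of -0.08. The groups did not overlap for 1 that was higher, beside 9.05% of all tested genes, and for 2 that were lower, beside 8.76%. Among them 1 was called, lower. Depth ran from 18184501 to 30136629 reads per library. On log2 values the WT libraries correlated with each other at r = 0.934, deleted a with b at 0.932 and deleted c with d at 0.923. The second principal component (27.1% of the variance) set the WT libraries, at 92.0 and 54.4, apart from deleted a to d, at -51.0, -80.5, -13.9 and -1.14. The first (31.2%) placed deleted c and d at 80.2 and 91.2, away from deleted a and b at -17.1 and -75.3 and from the WT libraries at -37.5 and -41.5. By correlation each deleted library was closest to the other of its pair, a with b and c with d. The pairs were not sharply divided, since a also correlated with c at 0.914 and with d at 0.906. On the first component a lay nearer to the WT libraries than to b. The proliferation gene Mki67 moved with these pairs, at 46274 and 48963 in WT, 63963 and 61069.9 in deleted a and b, and 18538 and 17249 in deleted c and d.

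Across the transcriptome few genes passed the test, and more of them fell than rose. The table held 51810 genes, of which 16485 had a mean value of at least 10 and were tested, and 133 (0.807%) were called at an adjusted p below 0.05, of which 51 (0.309%) were higher and 82 (0.497%) lower in the Daxx-deleted libraries. The median log2 difference over all tested genes was -0.02, and 1370 genes (8.31%) had an unadjusted p below 0.05. The groups did not overlap, with the deleted libraries higher, for 9.05% of the tested genes and, with the deleted libraries lower, for 8.76%. Among the called genes 4 of those higher were on chromosome Y and 3 of those lower (Gpc4, Pcyt1b and Reps2) on chromosome X, which left 47 higher and 79 lower on other chromosomes. The lower genes moved further, with a median of -3.38 against 2.31 for the higher ones. The count rests on having both WT libraries: 6 genes were called without WT a and 5 without WT b, whereas 60, 220, 79 and 99 were called without deleted a, b, c and d in turn.

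**Figure D2:**
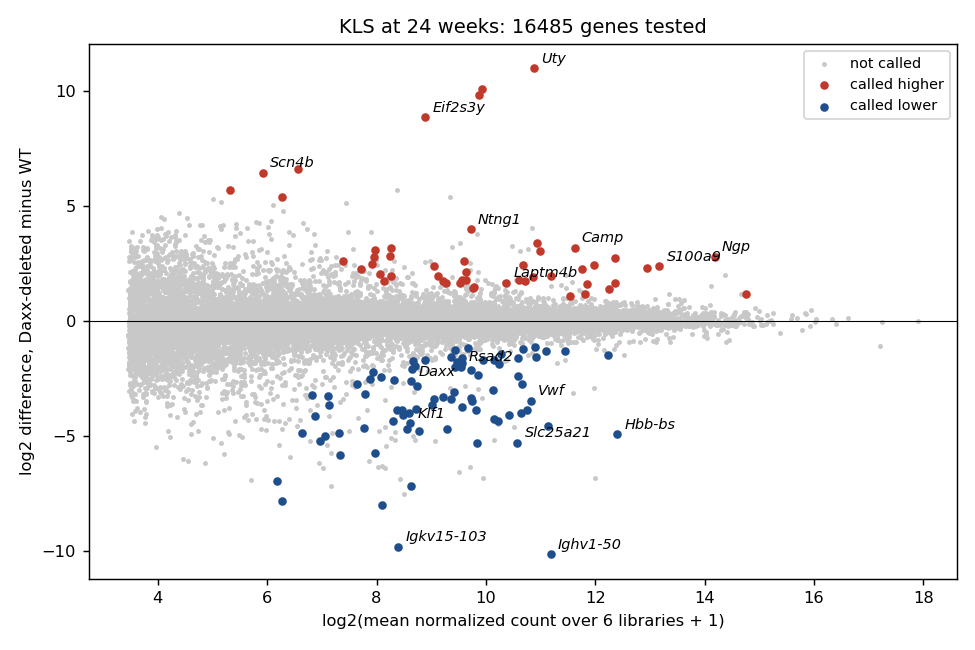
The log2 difference between the Daxx-deleted and WT libraries of each of the 16485 tested genes (vertical axis) against log2 of its mean normalized count over the 6 libraries plus 1 (horizontal axis), with genes called higher in red, genes called lower in blue, genes not called in grey and 16 names written in. The 82 lower genes reach further from 0 than the 51 higher ones, apart from the Y-linked genes at the top.

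The erythroid genes fell together. Of 22 genes in the list of red cell transcription factors, globins and membrane proteins, 20 were tested and 11 were called lower, none higher, at a median log2 difference of -4.01 beside -0.02 for all tested genes. For 19 of the 20 the groups did not overlap, with the deleted libraries lower, beside 8.76% of all tested genes. They included Aqp1, Slc4a1, Car1, Ermap, Rhd, Hbb-bs, Klf1, Sphk1, Hba-a1 and Hbb-bt, and edgeR, run on the whole reads recovered from the normalized counts, called the same 11. Without either WT library none of the 20 was called, at medians of -4.16 without WT a and -3.85 without WT b. Summed over the 21 members in the table the erythroid level was 73931 and 81591 in WT and between 19165 and 28295 in the deleted libraries. In bulk RNA fewer cells of a type within the gate and less RNA per cell cannot be told apart.

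Klf1, the erythroid Krüppel-like factor that switches on adult globin and much of the red cell program, and Hbb-bs, an adult beta globin, open the group. Their promoter windows are shown with that of Rhag, the Rh-associated glycoprotein of the red cell membrane, because all 3 genes were called lower and the windows can be read for the motifs of erythroid factors. Each window runs from 250 bases before the RefSeq start to 50 bases after it (300 bases, 5′ to 3′ on the gene's strand, GRCm38.p6). Capitals mark matches on either strand to 4 motifs, each searched in a single spelling. These are AGATAA for Gata1 and its relatives, CCACACCC for Klf1 and its relatives, TTGCNNAA for the C/EBP factors and GAGGAAG for Pu.1. Other spellings of these motifs were not searched. Klf1 is taken from chr8:84901732-84902031 on the plus strand, Hbb-bs from chr7:103827879-103828178 on the minus strand and Rhag from chr17:40810899-40811198 on the plus strand.
Klf1: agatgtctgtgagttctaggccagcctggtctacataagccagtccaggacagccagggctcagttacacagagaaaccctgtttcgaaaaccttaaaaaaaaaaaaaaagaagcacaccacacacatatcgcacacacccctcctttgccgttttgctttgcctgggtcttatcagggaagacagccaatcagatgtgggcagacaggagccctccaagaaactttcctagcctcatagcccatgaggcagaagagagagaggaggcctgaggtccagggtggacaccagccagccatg
Hbb-bs: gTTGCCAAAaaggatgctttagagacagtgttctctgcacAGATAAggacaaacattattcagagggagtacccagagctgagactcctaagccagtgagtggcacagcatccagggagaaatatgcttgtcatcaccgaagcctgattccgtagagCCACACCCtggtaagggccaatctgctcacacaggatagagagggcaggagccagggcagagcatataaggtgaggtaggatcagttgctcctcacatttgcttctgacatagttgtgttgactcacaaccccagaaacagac
Rhag: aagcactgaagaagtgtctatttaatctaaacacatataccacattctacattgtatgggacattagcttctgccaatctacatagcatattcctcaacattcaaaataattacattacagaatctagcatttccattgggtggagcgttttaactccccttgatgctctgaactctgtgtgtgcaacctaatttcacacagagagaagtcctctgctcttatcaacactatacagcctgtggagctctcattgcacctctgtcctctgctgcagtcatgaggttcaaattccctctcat
The Hbb-bs window holds a GATA match at bases 41 to 46, a Klf1-type match at 158 to 165 and a C/EBP match at 2 to 9. The windows of Klf1 and Rhag hold none of the searched letters. Both do hold TTATCA, which reads TGATAA on the other strand, a GATA spelling that was not searched or counted. A window was found for 15 of the 20 tested erythroid genes, and 4 of the 15 had the GATA letters (26.7%) beside 6.92% of the 11696 tested genes with a window, and 1 had the Klf1 letters (6.67%) beside 3.77%, while 2 had the C/EBP letters and 2 those of Pu.1. A match is a description of the letters and not of a bound site.

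Klf1 (chr8:84901928-84905291, plus strand) had normalized counts of 1098 and 1052 in WT and of 37.5, 67.2, 49.8 and 42.6 in the Daxx-deleted libraries. The deleted libraries were close to each other and far below both WT libraries, and Klf1 fell by 4.45 ± 0.41 on the log2 scale (adjusted p = 0.00207). Hbb-bs (chr7:103826534-103828096, minus strand) had 14496 and 15738 in WT against 544, 783, 176 and 794, a log2 difference of -4.93 ± 0.54 (adjusted p = 0.00404). Hbb-bt, the other adult beta globin, had 1707 and 1749 against 50.6, 86.8, 56 and 75.2 (-4.70, adjusted p = 0.000854). Hba-a1, an alpha globin, had 5615 and 6761 against 364, 289.7, 101 and 438 (-4.55, adjusted p = 0.0048). In each globin the 2 WT libraries were close to each other and deleted c or a was the lowest. The globins are near-identical copies in pairs, so that reads can be split between copies by the counting.

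The membrane proteins of the red cell moved likewise. Slc4a1, the band 3 anion exchanger, had 3938 and 4448 in WT and 190.1, 203, 217 and 559 in the deleted libraries (-4.00 ± 0.42, adjusted p = 0.00382), with deleted d the highest of the 4. Ermap, an erythroid membrane protein of the immunoglobulin superfamily, had 2399.8 and 2776 against 112, 96.6, 23.8 and 63.5 (-5.32 ± 0.58, adjusted p = 0.00404). Rhag had 650.4 and 787 against 17.9, 8.56, 20.7 and 7.52 (-5.73 ± 0.65, adjusted p = 0.00492). No deleted library reached the lower WT library in any of these 3 genes.

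The other furthest falls were of mixed kinds. Sphk1, sphingosine kinase, which makes the lipid that red cells export, had 430.1 and 495 in WT and 6.53, 3.67, 20.7 and 5.01 in the deleted libraries (-5.81, adjusted p = 0.017). Slc25a21, a mitochondrial carrier of 2-oxodicarboxylates, had 4022 and 4653 against 104, 182, 72.6 and 101 (-5.30 ± 0.37, adjusted p = 0.000458). Sphk1 overlaps an antisense gene and Slc25a21 overlaps Pax9 on the opposite strand, and since the strand used in counting is not given, reads of the partners cannot be told apart. Abcg4, a sterol transporter, had 299 and 410.2 against 4.89, 6.11, 10.4 and 15.9 (-5.21), and Sh2d4a, an SH2-domain adaptor, had 381 and 370.0 against 16.3, 7.33, 14.5 and 7.52 (-5.00). Gm48693, a gene model with no known role, had 257 and 167 against 0.816, 0, 0 and 3.34 (-6.96 ± 1.22, adjusted p = 0.0433), and it overlaps 3 other gene models on the same strand, so reads can be split among them. Among the called lower genes outside the list were the beta spectrin Sptb (-3.88), ankyrin Ank1 (-4.09), adducin Add2 (-4.78), the Kell antigen Kel (-4.70), the haem synthesis enzymes Cpox (-1.70) and Fech (-1.55), the mitochondrial iron importer Slc25a37 (-1.23), Bpgm (-1.87), which makes 2,3-bisphosphoglycerate, and Sox6 (-2.72), a factor that silences embryonic globin. These were chosen after their values were seen, and they are named because each has a known place in the red cell.

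Gata1, the X-linked master regulator of red cells, and Epor, the erythropoietin receptor, did not pass the test and are given because they head the program. Gata1 had 574 and 821 in WT and 98.7, 243, 52.9 and 56.8 in the deleted libraries (log2 -2.88 ± 0.61, adjusted p = 0.0879), and Epor 274 and 323 against 7.34, 72.1, 17.6 and 25.1 (-3.68 ± 0.84, adjusted p = 0.123). Neither overlapped, and deleted b was the highest of the 4 in both. Both were chosen after their values were seen.

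The regulators and enzymes shared with stem cells differed by less. Tal1, a factor of both stem and erythroid cells, had 3375 and 3513 in WT and 2587, 2130.3, 2856 and 2826 in the deleted libraries, with no overlap but an adjusted p of 0.588 (log2 -0.41). Zfpm1, the Gata1 partner, had 12184 and 12039 against 5412, 5387, 9493 and 8913 (-0.78, adjusted p = 0.374), and Car2, carbonic anhydrase, 14426 and 15535 against 7688, 4803, 8756 and 11727 (-0.93, adjusted p = 0.344). Tfrc, the transferrin receptor, which dividing cells of all kinds use, overlapped, with 2653 and 3418 against 3446, 3421, 1588 and 1059.9 (-0.51, adjusted p = 0.928). In Tfrc the low libraries were deleted c and d, the pair that was also low in Mki67.

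Vwf was the only called gene of the megakaryocyte list. It encodes von Willebrand factor and marks platelet-primed stem cells, and it had 5997 and 3174 in WT and 210.5, 616, 428 and 428 in the deleted libraries (chr6:125546774-125686679, plus strand, log2 -3.47 ± 0.42, adjusted p = 0.0063). The highest deleted library was far below the lower WT library. The list had 18 tested members, 15 of them with a negative difference and 5 without overlap and lower, beside 8.76% of all tested genes, at a median of -0.79 beside -0.02. Mmrn1, a platelet protein, had 5541 and 3258 against 2966, 1001, 4769 and 5366 (adjusted p = 0.949). Its groups overlapped through deleted c and d.

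No gene of the stem cell list was called, although 24 of its 27 tested members had a negative difference and 9 did not overlap and were lower, beside 8.76% of all tested genes, at a median of -0.83 beside -0.02. DESeq2 on the recovered reads called 5 of the 27, 4 lower and 1 higher. Mecom, the Evi1 locus needed for stem cell self-renewal, had 39097 and 23446 in WT against 12983, 12156, 20831 and 20164 (log2 -0.92 ± 0.30, adjusted p = 0.333). Mllt3 had 12463 and 7989 against 3886, 3904, 8282 and 6566 (-0.90, adjusted p = 0.461), and Meis1, a Hox cofactor, 28082 and 19902 against 14250.4, 13533, 22576 and 22624 (-0.42, adjusted p = 0.848). WT a was the highest library for all 3 of these genes. Gata2 had 5431 and 5091 against 2950.4, 3733, 3465 and 2874 without overlap (-0.70, adjusted p = 0.164). Of the Hox cofactors Pbx3 was called lower, with 2492 and 1785 against 713, 638, 1088 and 721 (-1.45 ± 0.26, adjusted p = 0.049), the 1 call among 8 tested members of the Hoxa list, and it overlaps C79798 on the opposite strand.

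The genes of late neutrophil differentiation rose. Of 16 in the list all were tested, 8 were called higher and none lower, and the median log2 difference was 2.05. The groups did not overlap, with the deleted libraries higher, for 11 of the 16, beside 9.05% of all tested genes. The 8 were Ngp, Camp, Lcn2, Ltf, Mmp9, S100a8, S100a9 and Retnlg, and edgeR called the same 8. Without either WT library none of the 16 was called, at medians of 2.06 without WT a and 2.10 without WT b. Summed over the list the level was 16283 and 20264 in WT and 107774, 74327, 61114 and 76445 in the deleted libraries.

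The promoter windows of Ngp, Camp and Lcn2, which encode 3 proteins of the secondary granules, are shown as for the erythroid genes. Ngp is taken from chr9:110419558-110419857 on the plus strand, Camp from chr9:109849407-109849706 on the minus strand and Lcn2 from chr2:32387690-32387989 on the minus strand, with the same 300 bases, the same 4 motifs and the same use of capitals.
Ngp: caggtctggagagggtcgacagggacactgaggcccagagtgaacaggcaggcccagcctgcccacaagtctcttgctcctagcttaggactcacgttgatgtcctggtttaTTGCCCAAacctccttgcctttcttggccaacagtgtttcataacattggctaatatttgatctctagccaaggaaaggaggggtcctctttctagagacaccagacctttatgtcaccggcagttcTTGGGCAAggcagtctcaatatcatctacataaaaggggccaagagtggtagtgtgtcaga
Camp: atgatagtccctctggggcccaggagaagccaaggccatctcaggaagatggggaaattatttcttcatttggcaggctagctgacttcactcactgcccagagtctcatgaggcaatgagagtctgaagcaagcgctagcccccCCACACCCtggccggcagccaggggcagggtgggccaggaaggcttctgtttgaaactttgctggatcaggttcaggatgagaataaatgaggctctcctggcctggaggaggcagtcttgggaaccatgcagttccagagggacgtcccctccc
Lcn2: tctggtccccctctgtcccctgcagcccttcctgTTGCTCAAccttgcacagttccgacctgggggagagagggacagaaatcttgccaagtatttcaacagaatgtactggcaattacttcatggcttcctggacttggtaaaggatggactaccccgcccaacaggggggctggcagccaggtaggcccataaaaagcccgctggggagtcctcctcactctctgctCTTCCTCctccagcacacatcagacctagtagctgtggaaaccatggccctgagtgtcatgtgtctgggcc
The Ngp window holds C/EBP matches at bases 113 to 120 and 240 to 247, the Lcn2 window a C/EBP match at 35 to 42 and a Pu.1 match at 230 to 236, and the Camp window a Klf1-type match at 146 to 153. A window was found for 15 of the 16 late neutrophil genes, of which 8 had the C/EBP letters (53.3%, beside 8.52% of all tested genes with a window) and 6 the Pu.1 letters (40%, beside 13.5%). The erythroid motifs were found there too, with the GATA letters in 3 of the 15 (20%) and the Klf1 letters in 2 (13.3%). Of the 40 genes called higher with a window 8 had the C/EBP letters, 4 those of Pu.1, 6 those of GATA (15%) and 2 those of Klf1. Of the 52 called lower 9 had the GATA letters (17.3%), 1 those of Klf1, 4 those of C/EBP and 8 those of Pu.1 (15.4%).

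Ngp, neutrophilic granule protein (chr9:110419747-110423012, plus strand), had normalized counts of 3247 and 3964 in WT and of 36168, 16903, 20219 and 30884 in the deleted libraries. The lowest deleted library was far above the higher WT library, and Ngp rose by 2.79 ± 0.30 on the log2 scale (6.93-fold, adjusted p = 0.00404). Camp, the cathelicidin precursor (chr9:109847379-109849617, minus strand), had 391 and 579.9 against 5179.7, 3269, 3648 and 5821 (3.19 ± 0.28, adjusted p = 0.00155). Lcn2, lipocalin 2, which binds bacterial siderophores (chr2:32384633-32388252, minus strand), had 971 and 1153 against 9819, 6140.2, 5926 and 7342 (2.76 ± 0.23, adjusted p = 0.00118). S100a8 and S100a9, the 2 chains of calprotectin, had 864 and 1040.0 against 6536, 4264, 3760.1 and 4298 (2.28, adjusted p = 0.00382) and 2022 and 2805 against 15555, 11932, 10305 and 12808 (2.39, adjusted p = 0.00172). In 4 of these 5 genes, all but Camp, deleted a was the highest library. Of the other called members Ltf, lactoferrin, differed by 2.31, Retnlg by 1.95 and Mmp9, a gelatinase of the tertiary granules, by 1.90.

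**Figure D3:**
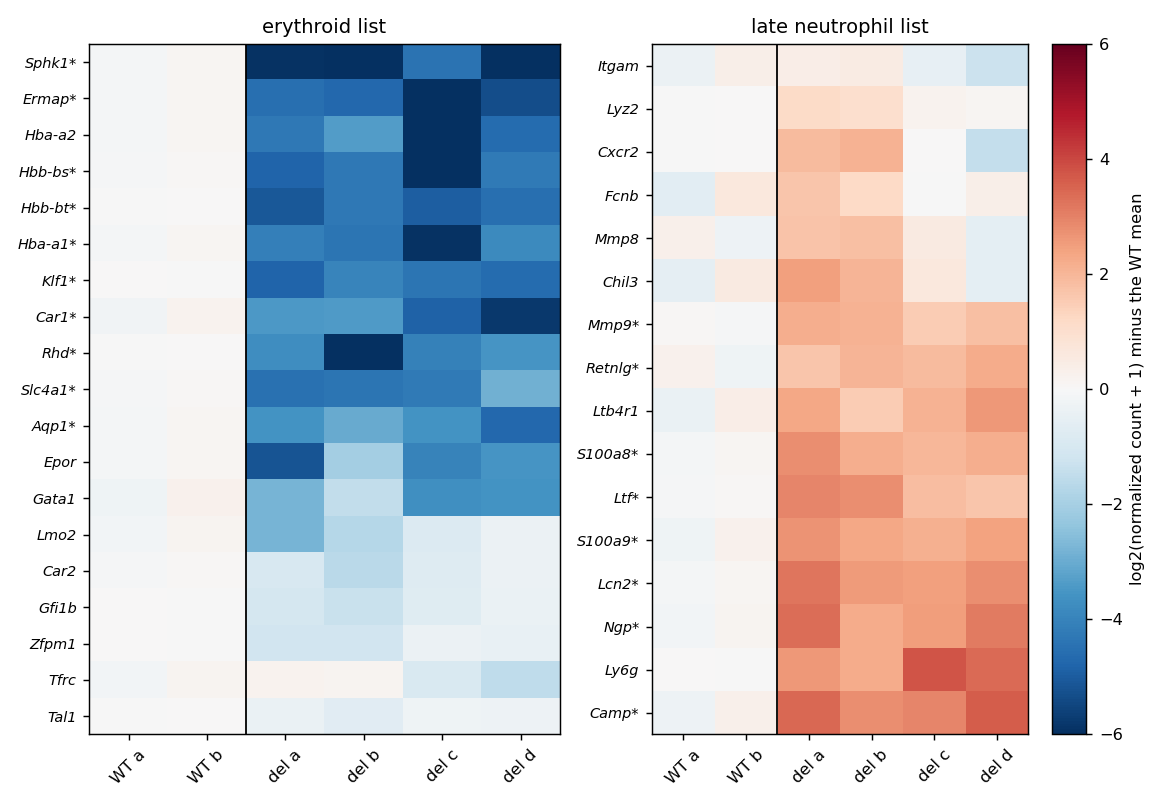
Heat map of 19 of the 20 tested erythroid genes (left) and the 16 late neutrophil genes (right) in the 2 WT and 4 Daxx-deleted KLS libraries of 24 weeks, as log2(normalized count + 1) minus the WT mean, with colours clipped at -6 and 6 and an asterisk at called genes. The called erythroid genes are blue and the called neutrophil genes red in all 4 deleted libraries, while the uncalled Tfrc, Itgam, Cxcr2, Mmp8 and Chil3 differ in sign between them.

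Outside that list the furthest called rises were of mixed kinds. Cebpe, the factor required for secondary granules, had 103 and 114 in WT and 357, 293, 389 and 418 in the deleted libraries (log2 1.73 ± 0.31, adjusted p = 0.0485). It was the 1 gene called among the 14 tested myeloid transcription factors, and edgeR did not call it. Stfa2, a stefin protease inhibitor of neutrophils, had 0 and 0.804 against 79.1, 231, 129.6 and 119, a ratio of 264 with a 95% interval of 47.1 to 10430.0 from the counting of 1 read in WT and 554 in the deleted libraries. Stfa2 belongs to a family of near-identical copies, and its reads may be shared among them. Orm1, an acute phase protein, had 3.96 and 0 against 97.9, 39.1, 88.1 and 227, a ratio of 80.7 (27.5 to 393) from 3 WT reads. Scn4b, a sodium channel subunit, had 0 in both WT libraries and 107, 86.8, 109.9 and 53.5 in the deleted ones, at least 59.0-fold higher with the floor at 3 reads over the WT group. These intervals and floors cover counting error only. Ifitm6, an interferon-induced membrane protein of myeloid cells, had 71.2 and 29 against 386, 324, 338 and 686 (3.15), and Rhou, a small GTPase, 19.8 and 74.8 against 378, 257, 287 and 484 (3.11). Sulf2, an extracellular endosulfatase of heparan sulfate, had 204 and 235 against 1932, 846, 3854 and 4706 (3.41 ± 0.59, adjusted p = 0.0412), and it overlaps Ncoa3 on the opposite strand. Sulf2, Orm1 and Rhou were not called by edgeR. Cd177 (3.05), Lrg1 (2.84), Mcemp1 (2.59), Il1r2 (1.95), Clec4e (1.66) and the integrin chain Itgb2 (1.10), all genes of neutrophils or monocytes, were also called higher and were picked out after their values were seen.

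The primary granule genes, which are made earlier in the neutrophil lineage, were not called. None of 13 tested passed, at a median of 0.55, whereas DESeq2 called 4 of them higher. In 6 of the 13 the groups did not overlap and the deleted libraries were higher, beside 9.05% of all tested genes. Mpo, myeloperoxidase, had 18631 and 27098 in WT and 52606, 38559, 26133 and 22087 in the deleted libraries (0.55, adjusted p = 0.824), with overlap through deleted c and d. Elane, neutrophil elastase, had 6399.8 and 10261 against 19918, 10354, 11283 and 11864 (0.67, adjusted p = 0.596). Ctsg, cathepsin G, had 1897 and 3074 against 7555, 5917, 6395 and 4721 (1.33, adjusted p = 0.0549). In Ctsg the groups lay well apart, and in Elane the lowest deleted library only just exceeded WT b. Of the markers of other mature cells none of 16 monocyte and dendritic genes was called (median -0.39), none of 16 T and NK cell genes (median 0.70), and none of 14 mast cell, basophil and eosinophil genes (median -1.03). Itgam, which encodes the CD11b that the lineage panel removes, is 1 of the 16 late neutrophil genes and overlapped between the groups. The part of mature neutrophils within the sort gate in the rises of the late neutrophil genes was not tested.

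**Figure D4:**
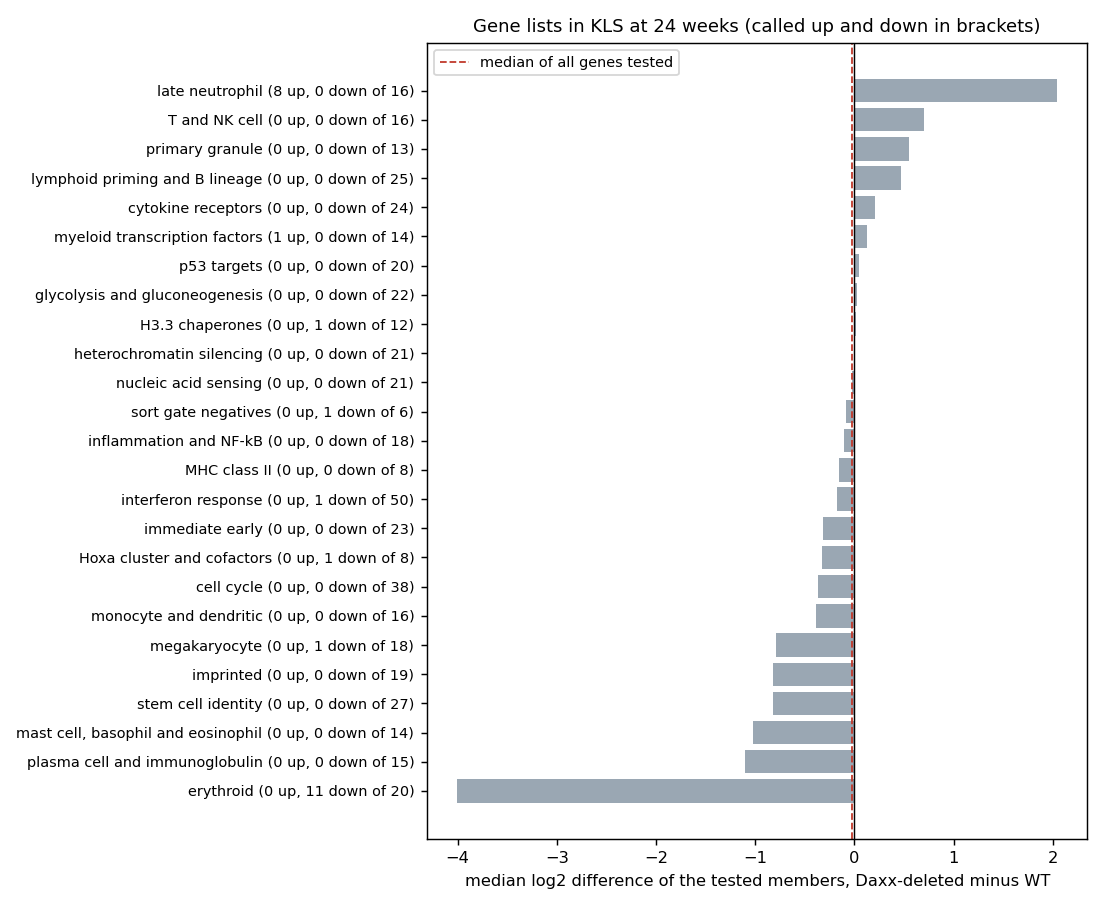
Bars give the median log2 difference between the Daxx-deleted and WT libraries over the tested members of each of the 25 gene lists with at least 5 of them, with the numbers called in each direction and tested in brackets and a dashed line at the median of all tested genes, -0.02. The erythroid list at -4.01 and the late neutrophil list at 2.05 lie farthest from 0.

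None of the 25 tested members of the lymphoid priming and B lineage list was called, at a median of 0.47 beside -0.02 for all tested genes. In 11 of them the groups did not overlap and the deleted libraries were higher, beside 9.05% of all tested genes, and in 3 lower, beside 8.76%, whereas DESeq2 called 8 higher and 2 lower. Flt3, the receptor of lymphoid-primed progenitors, had 8299.6 and 7225 in WT and 11151, 11391, 10285 and 10038 in the deleted libraries (0.47, adjusted p = 0.373). Dntt, terminal transferase, had 5686 and 9065 against 13223, 18625, 13558 and 10621 (0.93, adjusted p = 0.227), and Ikzf1, Ikaros, 20515 and 20342 against 23712, 22808, 27683 and 27803 (0.31, adjusted p = 0.764). All 3 of these lay higher in every deleted library than in either WT library, and none passed the test. Of the T and NK cell genes Il2rb had 31.7 and 62.7 against 209.6, 242, 174 and 134 (adjusted p = 0.135) and Lck 255 and 289.6 against 563, 913, 489 and 487 (adjusted p = 0.233). Cd4, one of the markers the lineage panel removes, had 204 and 148 in WT and 1.63, 80.7, 21.8 and 7.52 in the deleted libraries (adjusted p = 0.382).

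Immunoglobulin variable segments held the furthest falls. Igkv15-103 had 1449 and 563 in the WT libraries and 0 in all 4 deleted libraries, at least 1260-fold lower with the floor at 3 reads over the group. Igkv12-46 had 272 and 187 against 0 in all 4, at least 308-fold lower. Ighv1-50 had 1092 and 12856 against 1.63, 1.22, 18.7 and 0, and Ighv1-78 1777 and 555 against 4.89, 2.44, 15.6 and 5.85. Igkv5-48 had 1460.4 and 174 against 0, 1.22, 0 and 5.85. Each of these 5 segments was present in both WT libraries and nearly absent from the deleted ones. The same segment can be used by many B or plasma cell clones, and segments resemble each other in sequence. The table held 346 V segments, a list put together after the values were seen, of which 114 were tested, 5 called lower and none higher, at a median of -1.79. A negative difference was found for 76 and a positive one for 38, and the groups did not overlap for 18 that were lower, beside 8.76% of all tested genes, and for 7 that were higher, beside 9.05%. Summed over all segments the level was 92038 and 90856 in WT and 23128, 99410, 41746 and 61228 in the deleted libraries, with overlap through deleted b. Of the 15 tested members of the plasma cell list none was called (median -1.10). Jchain, the joining chain of secreted IgM and IgA, had 9975 and 10287 against 4507, 4757, 2204 and 3479 (-1.50, adjusted p = 0.0661), and Ighm had 157443 and 271036 against 39387, 226692, 64919 and 146861 (-1.10, adjusted p = 0.774), so plasma cell transcripts were abundant in the libraries of both groups.

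Interferon genes, which the pI:pC injections induce for a short time, had a median close to that of all tested genes, but most leaned lower. A negative difference was found for 38 of 50, beside 8620 of all 16485 tested genes. The groups did not overlap for 9 that were lower, beside 8.76% of all tested genes, and for 1 that was higher, beside 9.05%. Of 50 tested 1 was called, lower, at a list median of -0.17. It was Rsad2, viperin, with 1437 and 1524 in WT and 504, 452, 239 and 341 in the deleted libraries (log2 -1.999 ± 0.32, adjusted p = 0.0286). The nucleic acid sensing genes (0 of 21 called, median -0.02), the NF-kB genes (0 of 18, median -0.11), the p53 targets (0 of 20, median 0.04) and the glycolysis genes (0 of 22, median 0.03) were also close to the median of all genes. None of 8 tested MHC class II genes was called. Cd74, the invariant chain, had 6065 and 6472 against 1447, 5468, 1927 and 3312 (-1.23, adjusted p = 0.432) and H2-Aa 1245 and 989 against 706, 512, 374 and 472 (-1.14, adjusted p = 0.166). None of 38 cell cycle genes was called (median -0.37), and Top2a, topoisomerase II alpha, followed the pairs seen in Mki67, with 17172 and 17722 in WT, 26456 and 27077 in deleted a and b, and 6812 and 5158 in deleted c and d.

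Within the H3.3 chaperone list Daxx was the 1 gene called of 12 tested, at a median of 0.01, and none of 21 tested genes of heterochromatin silencing was called, at a median of 0.00. None of 19 tested imprinted genes was called, at a median of -0.83 beside -0.02, with 5 not overlapping and lower, beside 8.76% of all tested genes. Grb10, an imprinted adaptor that restrains growth factor signalling, had 3372 and 2542 in WT and 673, 754, 1288 and 1903 in the deleted libraries (-1.47, adjusted p = 0.203). Igf2r, the receptor that clears Igf2, had 2253 and 2160.4 against 1202, 1159, 854 and 1116 (-1.04, adjusted p = 0.0671). Both genes lay lower in all 4 deleted libraries and neither passed the test.

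Repeats were read in a separate table of the same libraries that gives counts per repeat subfamily. Of 838 subfamilies tested with edgeR 1 was called (0.119%), higher, and 54 (6.44%) had an unadjusted p below 0.05. It was IAPLTR3-int, the internal part of an intracisternal A particle, a family of endogenous retroviruses that Daxx and H3.3 are known to hold silent in other cells. It had counts of 311 and 407 in WT and of 1500, 1355, 2004 and 2037 in the deleted libraries, or 91.0 and 79.3 against 320.0, 425, 329 and 282 CPM, the counts scaled to the total of repeat counts in each library. All 4 deleted libraries were more than 3-fold above both WT libraries on that scale, and it rose by 2.03 ± 0.22 on the log2 scale (adjusted p = 0.0133). It was not called without WT a or without WT b. Of the 25 IAP subfamilies tested 20 had a positive difference, beside 428 of all 838 subfamilies. The groups did not overlap for 3 that were higher, beside 7.16% of all subfamilies, and for 1 that was lower, beside 8.47%. None of the 23 repeat families was called by edgeR or by DESeq2, and none had an unadjusted p below 0.05 in edgeR. IAP as a whole had 12223 and 14163 CPM, here after TMM scaling, in WT against 17122, 18991, 13901 and 14192 in the deleted libraries (log2 0.28, adjusted p = 0.794). Repeat counts per 100 gene reads were 18.8 and 17.5 in WT, 15.6 and 15.2 in deleted a and b and 26.8 and 25.6 in deleted c and d. The total of repeat reads thus followed the pairs of deleted libraries, with the WT libraries between them. Whether these pairs differ in the Pu.1 allele could not be told.

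The same contrast in the GMP of the same animals gave 613 called genes of 16894 (3.63%), 377 higher (2.23%) and 236 lower (1.40%). The tables were normalized separately and no test was made between them. The libraries are from the same animals, and sex divides the groups there too, so the GMP values are no independent support. Of the erythroid list 17 of 20 tested genes were called lower in GMP (median -3.35), and of the late neutrophil list 12 of 16 were called higher (median 1.66). Klf1 had 188 and 464 in WT GMP and 37.9, 17.4, 4.58 and 52.4 in the deleted ones, and Ngp 29455 and 33522 against 99864, 119014, 285544 and 303352. Of the 51 genes called higher in KLS cells 34 were called higher in GMP (66.7% of the 51 and 9.02% of the 377), and of the 82 called lower 44 were called lower in GMP (53.7% of the 82 and 18.6% of the 236). Elane and Ctsg had lower values in each deleted GMP library than in either WT one, the opposite side to that in KLS cells, and were called in neither.

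KLS cells at 3 weeks gave 39 called genes of 15200 (0.257%) between 3 WT and 3 Daxx-KO libraries, 28 higher (0.184%) and 11 lower (0.0724%). Here Daxx had 423, 467 and 505 in WT and 82.6, 102 and 72.2 in Daxx-KO (log2 -2.44, adjusted p = 0.00373), and the Y-linked genes were near 0 in both groups. None of the 20 tested erythroid genes was called at this time, although 18 had a negative difference, at a median of -1.27, and DESeq2 called 2 lower. Their WT levels were far lower than at 24 weeks: Hbb-bs had 106, 15 and 138 in WT against 11.3, 3.59 and 1.05, and Klf1 25.9, 129.8 and 105 against 12.4, 82.5 and 11.5. None of the 16 late neutrophil genes was called or had groups that did not overlap at 3 weeks, and all 16 had a negative difference, at a median of -0.70. That sign rests on the third WT library: summed over the list the level was 5009, 2177 and 39183 in WT and 3045, 9127 and 2734 in Daxx-KO, and without the third WT library 3 of 15 tested genes had a negative difference, at a median of 0.31. Ngp had 887, 124 and 10749.5 in WT and 542, 2949 and 359.9 in Daxx-KO, a spread over which the sign of its difference turned when the third WT or the third Daxx-KO library was left out. In the 2 DKO libraries of 3 weeks the list summed to 173706 and 141757, above all WT and Daxx-KO libraries of that time. Ngp alone had 140992 and 100171 there. Not all members were high in DKO, since Chil3 had 12.5 and 27.0 and Itgam 96.8 and 176, below every WT library. Whether the 24-week rises depend on the Pu.1 F/F animals within the deleted group was not tested. Whether the 24-week and 3-week differences themselves differ was not tested.

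A small set of genes was called in the same direction at both times. Of the 82 genes lower at 24 weeks 81 were tested at 3 weeks, 65 had a negative difference (50.05% of all tested genes had one) and 3 were called, Daxx, Gm21989 and Gm26573. Of the 51 higher genes 45 were tested, 22 had a positive difference (49.9% of all tested genes had one) and 6 were called, Laptm4b, Emp1, Arpp21, Ankrd6, Msrb3 and Ntng1. These 8 genes beside Daxx were named after their values were seen. Emp1, an epithelial membrane protein, had 199 and 293 in WT and 1118, 980.2, 1215 and 975 in the deleted libraries at 24 weeks, and 18.4, 39.7 and 37 against 456, 613 and 340.0 at 3 weeks. Ntng1, netrin G1, had 88.4 and 57.9 against 616, 1285, 1716 and 1290.4, and 21.6, 40.6 and 71 against 1820.5, 598 and 1217. Arpp21, a phosphoprotein of early lymphoid and neural cells, had 682 and 1283 against 3611, 3152, 8023 and 7378, and 336, 519.9 and 321 against 3944, 5046 and 2279.6. In each of these 3 genes every deleted library lay above every WT library at both times.

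Laptm4b, a lysosomal membrane protein, had 518 and 565 in WT and 1622, 1772, 1706 and 1753 in the deleted libraries at 24 weeks, and 350.2, 354 and 263 against 1146, 845 and 978 at 3 weeks. Msrb3, a methionine sulfoxide reductase, had 412 and 386 against 1857, 1562, 2655 and 2963, and 281, 335 and 170.1 against 944, 839 and 899. Gm26573, a gene model with no known role, had 840.4 and 794 against 232, 154, 200.1 and 268, and 983, 732 and 883 against 114, 82.5 and 91. Gm21989, another gene model, had 371 and 183 against 2.45, 14.7, 10.4 and 9.19, and 203, 256 and 198 against 20.4, 5.38 and 8.37. Ankrd6, an ankyrin repeat protein of the Wnt pathway, had 342 and 250.1 against 768, 906, 1315 and 1175, and 158, 218 and 101 against 1101, 515 and 553. None of these 5 genes had groups that overlapped at either time. The 2 DKO libraries of 3 weeks had 47.9 and 61.7 for Emp1, 477 and 601 for Laptm4b, 361 and 439 for Msrb3 and 126 and 172 for Ntng1, in each gene between the WT and the Daxx-KO libraries. They had 122 and 124 for Ankrd6, inside the WT range, and 383 and 683 for Arpp21, of which only the first is inside it. For Gm26573 they had 115 and 182, above the Daxx-KO libraries, and for Gm21989 22 and 4.82, on both sides of the Daxx-KO libraries and below WT. Zfp951, a KRAB-type zinc finger gene, was not called at 24 weeks but had 763 and 640.2 in WT and 20.4, 0, 1.04 and 128 in the deleted libraries (adjusted p = 0.207), and 879, 756 and 839 against 24.9, 22.4 and 26.2 at 3 weeks (adjusted p = 0.00373). IAPLTR3-int had 84.0, 71.4 and 103 CPM of repeat counts in WT and 390.3, 405 and 338 in Daxx-KO at 3 weeks, and 90.8 and 123 against 321 to 401 in GMP at 24 weeks, with the groups apart in all 3 tables and no test made outside the 24-week KLS table.

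**Figure D5:**
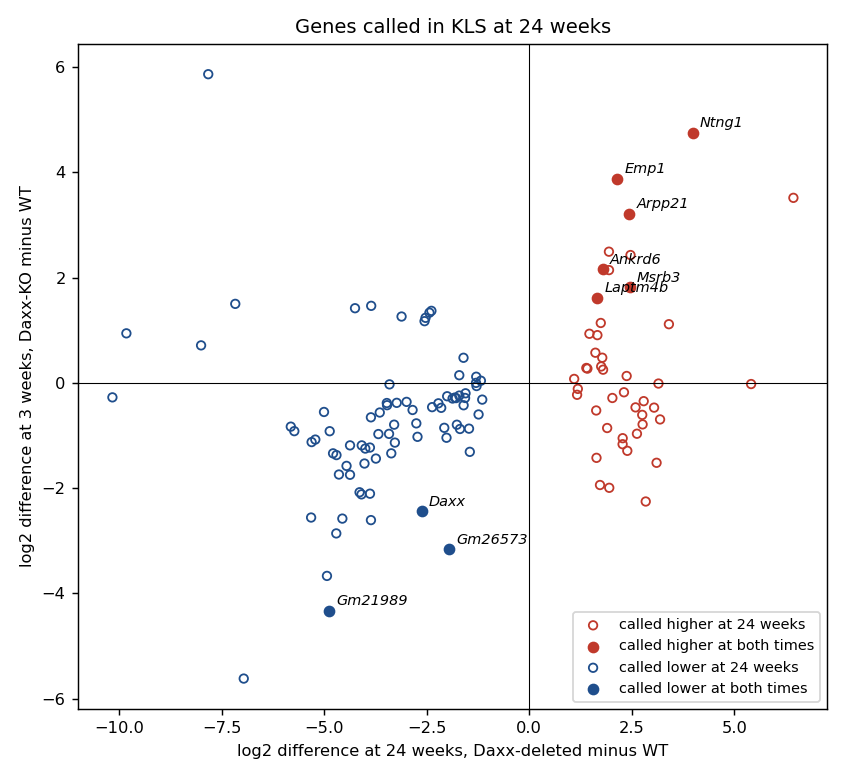
Each point is a gene called in KLS cells at 24 weeks and tested at 3 weeks, with its log2 difference at 24 weeks (Daxx-deleted minus WT, horizontal axis) and at 3 weeks (Daxx-KO minus WT, vertical axis), red for the 45 higher and blue for the 81 lower genes. The filled points are the 6 higher and 3 lower genes called at both times, and the open red points lie on both sides of 0 at 3 weeks.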

How the data were processed

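RNA was sequenced from sorted KLS cells of 2 WT and 4 Daxx-deleted mice at 24 weeks. Per the submitters' processing notes the tools were CASAVA 1.8.4, cutadapt 1.13, STAR 2.5.3 and DESeq2 1.16.1, with mm10. The counter, the annotation release and the strand setting are not given in the sources used here. The labels and the methods name different RNA and library kits, so the kit was not settled. The gene values are a signal deposited by the authors as normalized counts. Dividing each column by its smallest step gave whole reads for 100% of values within 0.01 of a read, hence depths of 18184501 to 30136629 reads (GMP 15484248 to 29418408, KLS at 3 weeks 11384751 to 15812520). Repeats were deposited as raw counts.

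Genes with a mean of at least 10 were tested with limma 3.58.1 (mean-variance trend) on log2(value + 1) in R 4.3.3, with Benjamini-Hochberg adjustment and a threshold of 0.05. Fold changes are on that scale, which understates the change of low genes. Repeats were tested with edgeR 4.0.16 (quasi-likelihood, TMM, filterByExpr). The scripts were tested on simulated data. Each table was fitted alone, the 3-week table with its 3 genotypes in 1 fit. Alternatives were edgeR and DESeq2 1.42.0 on recovered reads, TMM, other filters and pseudocounts, each library left out, and, chosen after seeing the data, genes of chromosomes X and Y left out. Coordinates and overlaps are from GENCODE vM21 (GRCm38), matched by symbol for 16431 of 16485 tested genes, and promoters from RefSeq.

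Named genes were the targeted genes, the 12 furthest rises and 12 furthest falls among called genes without overlap and with a mean of at least 50, and for each of 27 gene lists the called members (the 5 with the smallest adjusted p where more were called) with up to 4 uncalled ones of the highest mean. Other genes are marked as chosen after their values were seen. The members and the lists were chosen with earlier results of these data known. One WT column of the 3-week table carries a number that no label gives, and it was placed by the control mark of the repeat table. Of 111 columns of per-sample values 73 were not used. Results for a few genes of the lists are not reported here.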

Additional observations from a re-analysis of the deposited data

Results flagged for a closer look

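In 3 named genes 1 of the 4 Daxx-deleted libraries stood apart from the other 3 by Dixon's test, which marks about 1 in 20 groups by chance. Slc4a1 had 559 in deleted d, above 190.1 to 217 in the others. Hoxa7 had 967 in deleted a, below 1437 to 1518. Parp14 had 2841 in deleted d, below 3461 to 3529.7.

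In 9 genes every deleted library lay on one side of WT in KLS cells at 24 weeks and on the other side in another table, and the difference between the tables was not tested. Over all tested genes the groups did not overlap for 9.05% (deleted higher) and 8.76% (deleted lower) in these KLS cells. These shares were 12.7% and 12.1% in GMP and 9.07% and 9.16% in KLS cells at 3 weeks. The share of all genes on opposite sides was not counted, so the 9 are listed only as a description. Slco3a1, a member of the organic anion transporter family, was called in both tables: KLS cells had 16279 and 13549.8 in WT and 30129.7, 28949.8, 41237 and 36266 in the deleted libraries (log2 1.19 ± 0.21, adjusted p = 0.0416), and GMP 12475 and 13382 against 11138, 9401, 8455 and 8484 (-0.47 ± 0.12, adjusted p = 0.0381). It was chosen after its values were seen, as were Kynu, kynureninase, called lower at 24 weeks and higher at 3 weeks without a call (1.24, adjusted p = 0.751), and Fstl4, a follistatin-like protein, called higher at 24 weeks and lower at 3 weeks without a call (-1.17, adjusted p = 0.439). The other 6 genes did not pass the threshold in the other table either. Igkv12-46 was lower at 24 weeks and higher at 3 weeks (log2 5.87, adjusted p = 0.265), where its values ran from 1.08 to 20 in WT and from 122 to 7447 in Daxx-KO. Elane (-0.45), Ctsg (-0.38) and Gzmb (-2.25), a cytotoxic granule protease, were higher in KLS cells and lower in GMP at 24 weeks, and Igf2r (0.97) was lower in KLS cells and higher in GMP. Csf3r, the G-CSF receptor, had 2813 and 3433 in WT and 4633, 4494, 4625 and 4351 in the deleted libraries at 24 weeks, and at 3 weeks 2149.6, 2171 and 2355 in WT and 1152, 1333 and 1403 in Daxx-KO (-0.78, adjusted p = 0.0553).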

How the results depend on the processing

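With 2 WT libraries the calls depend on both. Genes called at 24 weeks in KLS cells ranged from 5 to 220 when each library was left out (higher 5 to 106, lower 0 to 114) and numbered 533 with DESeq2 (289 higher and 244 lower, all 133 shared), 138 with edgeR (37 and 101, 119 shared), and 122 without chromosomes X and Y. The other filters, pseudocounts and scalings gave 120 to 143. All 38 named called genes kept their direction under each of these settings that tested them. Their groups did not overlap, so leaving out a library or changing the filter or pseudocount could not have turned a sign. Of these 38, 34 were called by edgeR, 38 by DESeq2, 4 (those of chromosome Y) without WT a and also without WT b, and 28, 38, 29 and 32 without deleted a, b, c and d. In GMP the calls ranged from 79 to 730 (higher 54 to 421, lower 25 to 309) and numbered 1033 with DESeq2 (649 and 384). At 3 weeks they ranged from 8 to 137 (higher 4 to 107, lower 3 to 30) and numbered 36 with edgeR (26 and 10) and 342 with DESeq2 (201 and 141). Repeat subfamilies called ranged from 0 to 1 (higher 0 to 1, lower 0 to 0) and were 3 with DESeq2, all higher; families called ranged from 0 to 0 in both directions. The sign turned for uncalled values near 0 or with wide spread: with a library left out Parp14 ranged from -0.039 to 0.15, Ngp at 3 weeks from -1.89 to 1.32 (0.26 without the third Daxx-KO library) and L1 elements from -0.089 to 0.0019, and L1 was 0.11 with gene-table library sizes, which moved the median subfamily to 0.19. The causes were not tested. With 1 WT library left, that library is assumed to vary like the deleted ones. No paired analysis was possible because the columns carry no replicate numbers that the labels give. Depths of 11384751 to 30136629 reads limit genes with means near 10.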

Other observations

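Mybpc3, a heart sarcomere protein gene and a neighbour of Spi1 on chromosome 2, was uneven within the Daxx-deleted group. It was chosen after its values were seen. It had normalized counts of 51.5 and 73.2 in WT KLS cells and of 1525, 31.8, 4456 and 4877 in deleted a to d (adjusted p = 0.569), and in GMP of the same animals 109 and 23.8 in WT and 145, 4448, 3752 and 4352. At 3 weeks it had 6428 and 3333 in the 2 KLS libraries that lacked both Daxx and Pu.1, and 14.05 to 49.8 in the other 6. Deleted c and d were high in both cell types at 24 weeks, whereas deleted a was high only in KLS cells and deleted b only in GMP. The labels give 2 of the 4 deleted animals as Pu.1 F/F, and the columns do not show which. Whether Mybpc3 marks the Pu.1 allele was not tested.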
